A study of Mus musculus with 24 samples.

Results

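Srebf1, Srebf2, Fasn, Acaca, Scd1, Scd2, Hmgcs1 and Sqle are genes of sterol and fatty acid synthesis, taken by symbol as 8 of 21887 protein-coding genes. For each, all peaks that reached into the gene or its 5 kb flanks by at least 1 bp were recorded in 8 deposited peak lists of wild-type mouse retina. The lists come from CUT&RUN, in which a nuclease tethered by an antibody releases the DNA around a chromatin protein for sequencing. They cover the transcription factors SOX8 and SOX9 and the histone marks H3K4me3 and H3K27ac, in retina of postnatal days 2 (P2) and 17 (P17), with 1 list for each target and age. All groups are wild type, and no allele or treatment separates them. Each reaction used 600000 nuclei of whole retina, with 4 SOX8 libraries (2 antibodies) and 2 libraries of each other target at each age. The 4 IgG control libraries were not analysed here.

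Srebf1 and Srebf2 encode the sterol regulatory element-binding proteins, membrane-bound transcription factors that are cut and released to the nucleus when sterols are scarce. SREBP-2 mainly drives cholesterol synthesis and SREBP-1 mainly fatty acid synthesis. Hmgcs1 and Sqle encode HMG-CoA synthase and squalene epoxidase of the cholesterol pathway, Acaca and Fasn encode acetyl-CoA carboxylase and fatty acid synthase, and Scd1 and Scd2 encode stearoyl-CoA desaturases, which put a double bond into saturated fatty acids. The neural retina makes cholesterol itself, and Müller glia are among its sterol-producing cells. SOX8 and SOX9 are related HMG-box factors of glia and progenitors.

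No list names a replicate and the score of every peak is 0, so a peak is only a position and a width. No replicate error can be given, no test between ages or factors was possible, and counts of genes with a peak are read against the share of all protein-coding genes in the same list. The lists differed in length and width. SOX8 had 2653 peaks at P2 and 2400 at P17, and SOX9 had 5476 and 2855, with median widths of 2668.5 and 5336 bp. H3K4me3 had 9134 and 9629 peaks, and H3K27ac had 287845 and 29909. H3K27ac peaks covered 525.4 Mb in all at P2 and 173.4 Mb at P17. At defining genes of cell types, an H3K4me3 peak lay at 4 of 6 rod genes at P2 and 6 at P17, and at 5 of 5 progenitor genes at P2 and 3 at P17. None lay at either age at 4 microglia or 3 endothelial genes. Of 5 Müller glia genes, 4 had a P2 and 2 a P17 H3K4me3 peak. Of 4 genes of the retinal pigment epithelium, a layer next to the retina, 2 and 1 had it; that list shares Rlbp1 with Müller glia. The retina was not sorted, so fewer cells with a peak and a weaker signal per cell cannot be told apart.

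The sequences just before the start sites that lay under SOX peaks are shown first, since most SOX peaks of these genes covered a start. The RefSeq table used matched 5 of the 8 members, with 7 start sites. Each sequence holds the 250 bases before a start, 5′ to 3′ on the gene's strand, from RefSeq (GRCm38.p6). Capitals mark CCAAT (the NF-Y box), CACCCCAC (a core of the sterol regulatory element) and the SOX core, spelled ACAATG or ACAAAG, each on either strand. The last CCAAT of Fasn overlaps another match on the opposite strand.
Hmgcs1, chr13:119690101-119690350, plus strand: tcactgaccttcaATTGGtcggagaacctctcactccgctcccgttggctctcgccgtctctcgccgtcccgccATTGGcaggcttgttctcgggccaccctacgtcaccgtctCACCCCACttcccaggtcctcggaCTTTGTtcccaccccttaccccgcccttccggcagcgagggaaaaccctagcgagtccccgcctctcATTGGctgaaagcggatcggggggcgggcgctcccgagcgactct
Srebf2, chr15:82147019-82147268, plus strand: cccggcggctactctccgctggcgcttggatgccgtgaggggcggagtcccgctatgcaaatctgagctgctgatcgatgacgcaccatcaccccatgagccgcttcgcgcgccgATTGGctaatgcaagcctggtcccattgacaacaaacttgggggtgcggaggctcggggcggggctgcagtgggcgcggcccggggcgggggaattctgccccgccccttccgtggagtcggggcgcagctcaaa
Fasn, chr11:120824548-120824797, minus strand: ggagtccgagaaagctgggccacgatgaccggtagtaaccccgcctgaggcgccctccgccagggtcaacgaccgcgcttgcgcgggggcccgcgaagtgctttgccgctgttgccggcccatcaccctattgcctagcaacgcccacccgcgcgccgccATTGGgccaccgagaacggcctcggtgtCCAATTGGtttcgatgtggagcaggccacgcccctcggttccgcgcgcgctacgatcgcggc
Srebf1 inner start, chr11:60210472-60210721, minus strand: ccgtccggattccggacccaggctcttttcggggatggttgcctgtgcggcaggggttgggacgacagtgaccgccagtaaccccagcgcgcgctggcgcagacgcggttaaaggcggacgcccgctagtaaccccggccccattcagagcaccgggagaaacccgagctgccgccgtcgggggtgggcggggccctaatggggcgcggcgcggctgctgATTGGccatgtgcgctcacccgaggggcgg
Srebf1 outer start, chr11:60222582-60222831, minus strand: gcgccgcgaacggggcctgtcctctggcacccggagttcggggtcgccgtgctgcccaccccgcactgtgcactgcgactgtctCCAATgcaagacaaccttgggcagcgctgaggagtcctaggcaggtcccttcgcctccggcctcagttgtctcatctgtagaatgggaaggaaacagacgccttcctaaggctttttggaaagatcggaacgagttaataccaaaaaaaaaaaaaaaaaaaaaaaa

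Matches were counted in the window of these 250 bases and the 50 bases from the start on. NF-Y boxes were found in 5 of the 7 windows, against 38.2% of 21263 windows of protein-coding genes. Fasn and Hmgcs1 held several: Fasn had matches 90, 62 and 59 bases before its start, and Hmgcs1 had matches 237, 176 and 45 bases before and another beyond it. CACCCCAC was found in 1 window, that of Hmgcs1, 136 bases before the start, against 2.88% of all windows. A SOX core was found in 2 windows, against 25.7% of all windows: Hmgcs1 had ACAAAG 112 bases before the start, and the outer start of Srebf1 had ACAATG at base 36 after it. The Srebf2, Fasn and Acaca windows and the middle and inner Srebf1 windows held neither SOX spelling. The Sp1 box GGGCGG was found in 4 windows (46.2% of all windows) and the E-box CACGTG in none (7.84%). A match is a description of letters and not a binding site.

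At P2, SOX9 peaks lay at 7 of the 8 genes, all but Scd1, where 27.7% of all protein-coding genes had a peak. P2 SOX8 peaks lay at 5 genes (Srebf2, Fasn, Acaca, Scd2 and Hmgcs1), against 15.1% of all genes. At P17, SOX8 peaks lay at 4 genes (Srebf2, Fasn, Scd2 and Hmgcs1), against 13.0%, and SOX9 peaks at 4 genes (Srebf1, Srebf2, Fasn and Hmgcs1), against 15.7%. The P17 SOX9 peak of Srebf2 lay at its far end, next to another gene. H3K4me3, the promoter mark, lay at the same 7 genes at P2 (49.3% of all genes) and at P17 (50.9%), and Scd1 had none. H3K27ac, which marks active promoters and enhancers, lay at all 8 genes at both ages, where 81.8% of all genes had a peak at P2 and 57.0% at P17. A peak in all 4 SOX lists was found at 3 members (Srebf2, Fasn and Hmgcs1) and at 6.45% of all genes. Only Scd1 among the members was in none of the 4 SOX lists, as were 66.1% of all genes.

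**Figure D1:**
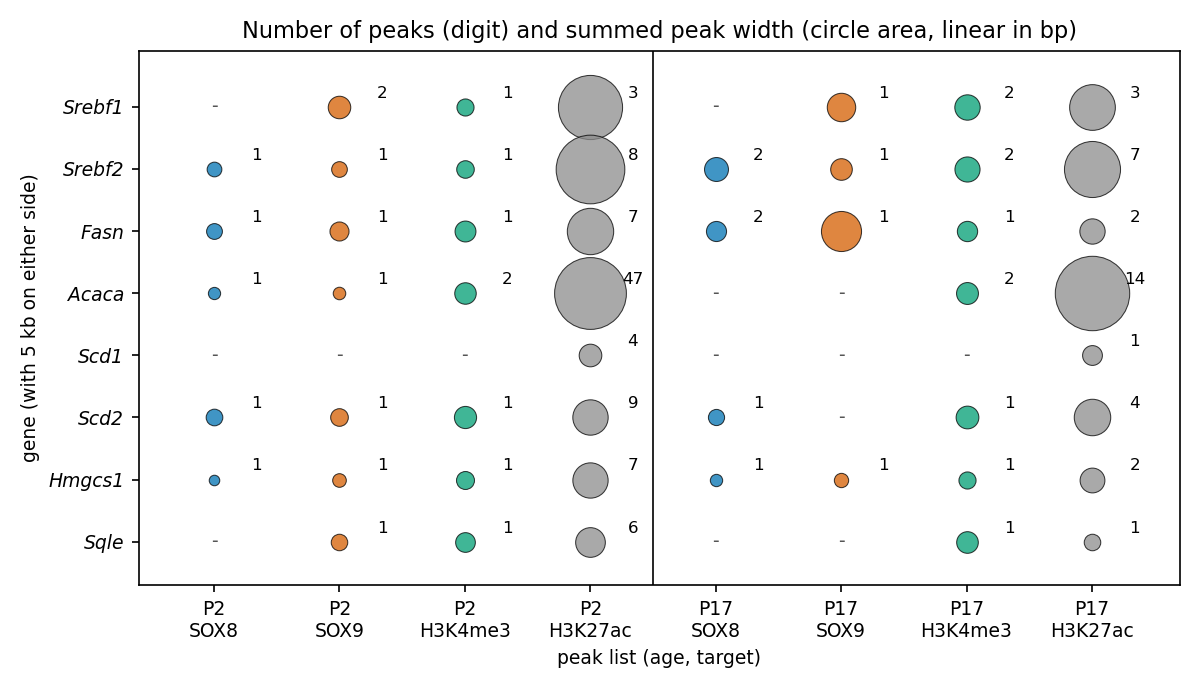
Each row is a gene with 5 kb on either side and each column a deposited peak list. Circle area gives the summed width of its peaks in bp, the digit their number, and a dash no peak; the narrow SOX circles of Hmgcs1 are present in all 4 SOX columns, and Scd1 has circles in the H3K27ac columns only.

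Genes that carry H3K4me3 are more often in the SOX lists, so the members were also read against those genes. Among genes with a P2 H3K4me3 peak, 53.3% were in the P2 SOX9 list and 29.8% in that of SOX8. The members with that mark had SOX9 in 7 of 7 and SOX8 in 5 of 7. Among genes with a P17 H3K4me3 peak, 27.4% were in the P17 SOX9 list and 23.1% in that of SOX8. Of the 7 members with the mark, 4 had SOX9 and 4 had SOX8. The SOX9 peak counted for Srebf2 was that at its far end, which overlapped H3K4me3 of the neighbouring gene only. The members are few, and the difference was not tested.

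**Figure D2:**
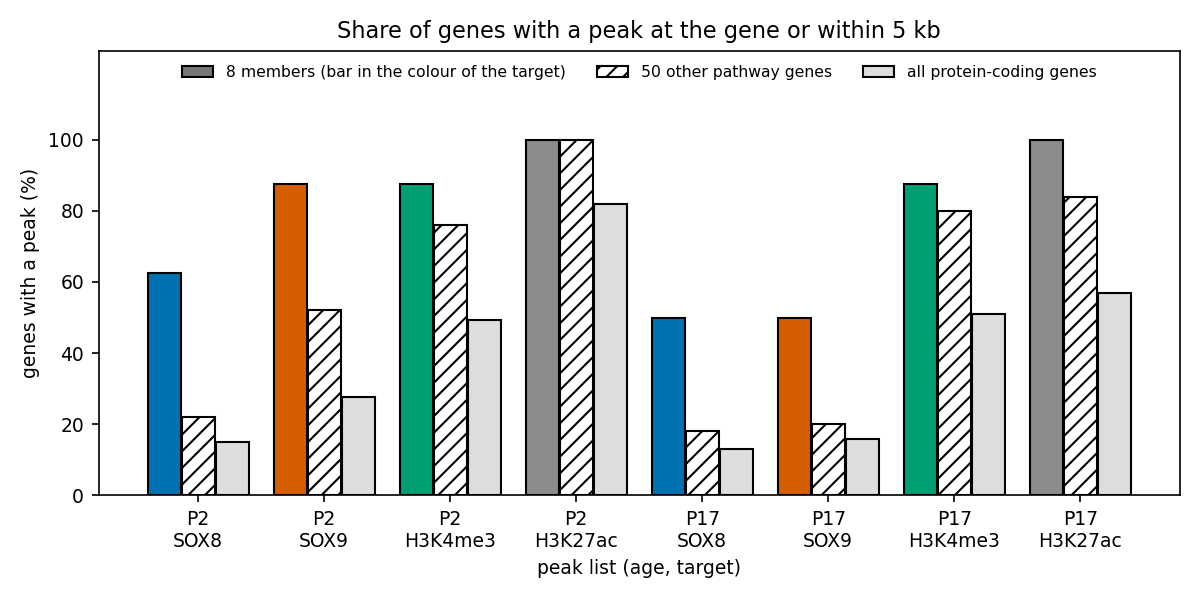
Bars give the share of genes with a peak, in percent, for the 8 members, 50 other genes of the pathway and all 21887 protein-coding genes, in each list. The member bar is the highest or joint highest of the 3 in every list, and in P2 SOX9 it stands for 7 of 8 genes, against 27.7% of all genes.

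Srebf1 (chr11:60199084-60224186) was the member with SOX9 and no SOX8 at both ages. The RefSeq table holds 3 starts on its minus strand: an outer one at 60222581, a middle one 1954 bp further in and an inner one 12110 bp further in. At P2 a SOX9 peak of 5072 bp (chr11:60206847-60211918) covered the inner start, together with H3K4me3 of 4049 bp. Another P2 SOX9 peak, of 1936 bp (chr11:60222143-60224078), covered the outer start and lay wholly outside P2 H3K4me3. The other 7 of the members' 8 P2 SOX9 peaks overlapped the mark. At P17 the inner start was under a SOX9 peak of 11178 bp (chr11:60201045-60212222), of which 37.4% lay in H3K4me3. H3K4me3 of 4542 bp then covered the outer and middle starts, and no SOX9 peak lay there. SOX9 and H3K4me3 at the outer start were thus found at different ages, while the inner start had both at both ages. H3K27ac spanned all 3 starts in a peak of 38170 bp at P2 and of 20212 bp at P17.

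Srebf2 (chr15:82147269-82205379) had SOX8 and SOX9 peaks at its start at P2, and SOX8 alone there at P17. The P2 SOX8 peak was 2994 bp wide (chr15:82145775-82148768) and the P2 SOX9 peak 3414 bp (chr15:82145098-82148511), and 91.4% of the former lay in the latter. The P17 SOX8 peak was 2211 bp wide (chr15:82146122-82148332) and lay wholly inside the P2 one. H3K4me3 covered the start with 4274 bp at P2 and 4737 bp at P17. The other P17 SOX peaks counted at Srebf2 lay past its far end, at the neighbouring gene Shisa8: a SOX8 peak of 5735 bp, with 0 bp in Srebf2, and a SOX9 peak of 6474 bp, with 615 bp in Srebf2. The SOX9 calls of Srebf2 at P2 and P17 therefore do not overlap each other, and within 1 kb of its start Srebf2 had SOX9 at P2 only. Srebf2 also holds the hairpin of Mir33, a microRNA known to repress cholesterol export. A P2 H3K27ac peak of 11945 bp covered the hairpin, no P17 H3K27ac peak did, and neither did a SOX or H3K4me3 peak. A P17 H3K27ac peak of 6258 bp (chr15:82191042-82197299) lay wholly inside that P2 peak and ended just short of the hairpin. The P2 H3K27ac list covered 525.4 Mb and the P17 list 173.4 Mb. The mature strand is shown with its seed, bases 2 to 8, in capitals (chr15:82198127-82198147, from RefSeq).
mmu-miR-33-5p: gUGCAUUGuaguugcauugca

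Fasn (chr11:120805958-120825166) had the widest SOX peak of any member. At P2 a SOX8 peak of 3465 bp (chr11:120823034-120826498) lay wholly inside a SOX9 peak of 5029 bp (chr11:120821901-120826929), both over the start. At P17 SOX9 formed a peak of 22210 bp (chr11:120806871-120829080) that ran from 4533 bp before the start to 17676 bp after it, and 18296 bp of it lay in Fasn. By width it was peak 8 of the 2855 in its list, and it reached the neighbouring gene Ccdc57. P17 SOX8 had 2 peaks inside it: 4068 bp over the start, and 1521 bp centred 10283 bp downstream. The latter overlapped neither H3K4me3 nor H3K27ac of P17. H3K4me3 at the Fasn start had similar extent at both ages, 6048 and 5690 bp, while H3K27ac there measured 19262 bp at P2 and 6406 bp at P17. Only 28.8% of the wide P17 SOX9 peak was inside H3K27ac and 25.6% inside H3K4me3.

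**Figure D3:**
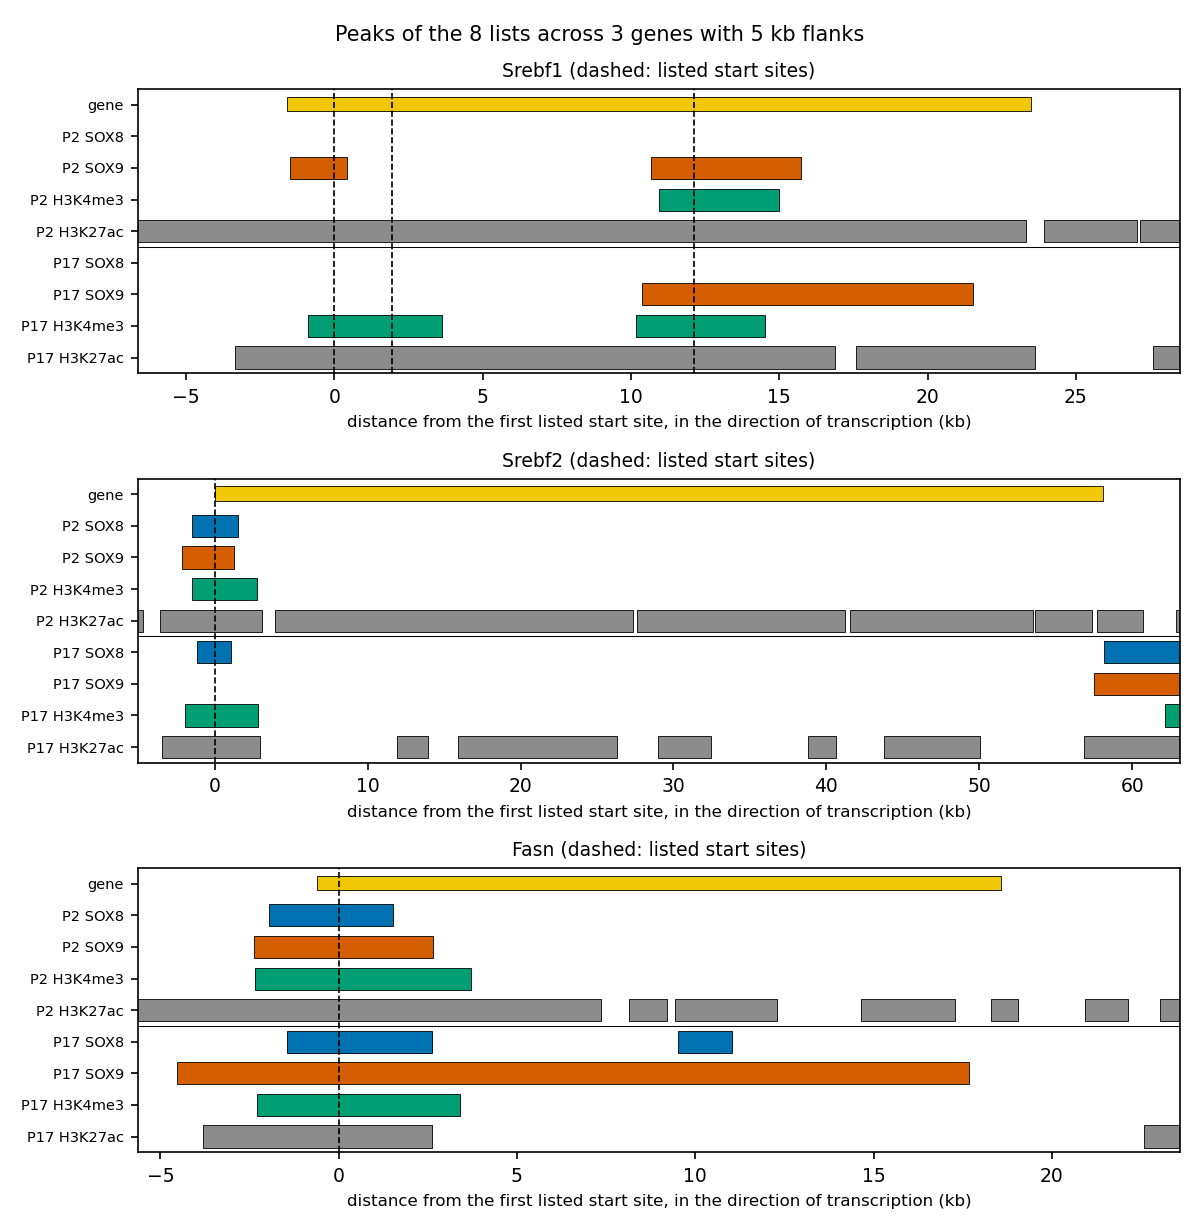
Peaks of the 8 lists (rows) across Srebf1, Srebf2 and Fasn with 5 kb flanks, in kb from the outermost listed start in the direction of transcription. Dashed lines are listed starts, the yellow bar is the gene, and peaks that pass the flank are drawn to its edge; the Fasn P17 SOX9 peak of 22210 bp and the Srebf2 P17 peaks past the far end of the gene stand out.

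Acaca (chr11:84129635-84401651), the longest member at 272017 bp and longer than 97.0% of all genes, had SOX peaks at P2 and none at P17. A SOX8 peak of 2074 bp (chr11:84178856-84180929) and a SOX9 peak of 2167 bp (chr11:84178531-84180697) shared most of their length, and both lay inside the gene, centred 15546 and 15824 bp before its listed start. H3K4me3 covered this place at both ages, with 2934 bp at P2 and 3621 bp at P17. The only listed start, at 84195438 on the plus strand, lies inside the gene. On that strand the 5′ end of the gene is its lower end. The listed start itself was under no SOX8, SOX9 or H3K4me3 peak at either age, and under an H3K27ac peak only at P17 (3112 bp). Acaca had another H3K4me3 peak at each age, which covered its lower end and also overlapped Tada2a. It lay at chr11:84127384-84130853 at P2 and at chr11:84127479-84130500 at P17, and no SOX peak lay there. H3K27ac was cut into 47 peaks at P2 and 14 at P17, which covered a similar share of the gene and its flanks, 25.3% and 27.1%.

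Scd2 (chr19:44293676-44306864) and Scd1 (chr19:44394450-44407709) are paralogs separated by 87585 bp, and their peaks differed. Positions at both, and at Sqle, are counted from the end of lower coordinate, which need not be the start. Scd2 had a P2 SOX8 peak of 3838 bp (chr19:44292365-44296202), wholly inside a P2 SOX9 peak of 4316 bp (chr19:44292240-44296555), and a P17 SOX8 peak of 3616 bp (chr19:44293060-44296675), with no P17 SOX9. These peaks lay over its lower end. The P2 SOX8 peak was wider than 95.7% of its list, the highest such share among the members' P2 SOX8 peaks. The H3K4me3 peaks of Scd2 were the widest of the members', 6795 bp at P2 and 7159 bp at P17. Scd1 had no SOX8, SOX9 or H3K4me3 peak at either age. Its marks were 4 P2 H3K27ac peaks of 834 to 2549 bp and 1 P17 H3K27ac peak of 5438 bp. The P17 peak lay outside the gene, 3090 bp from its lower end. The P2 peak of 834 bp (chr19:44407788-44408621) lay just past the upper end. Only 8.22% of Scd1 and its flanks was under H3K27ac at P17, against 60.9% for Scd2.

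Hmgcs1 (chr13:119690351-119708260) had all 4 SOX peaks at the same place, over its start. They measured 1535 bp for P2 SOX8 (chr13:119689524-119691058), 2582 bp for P2 SOX9 (chr13:119689493-119692074), 2103 bp for P17 SOX8 (chr13:119689788-119691890) and 2824 bp for P17 SOX9 (chr13:119689002-119691825). Their centres lay between 60 bp before and 488 bp after the start, and all 4 were inside H3K4me3 and H3K27ac of their age over their full length. All 4 were narrower than their list's median. The P2 peaks were wider than 8.7% (SOX8) and 46.3% (SOX9) of their lists, and the P17 peaks wider than 20.9% and 10.9%. H3K4me3 measured 4479 bp at P2 and 4068 bp at P17. Of the 5 members with a listed start, Hmgcs1 alone had the CACCCCAC match. Hmgcs1 and Srebf1 had a SOX core, in 2 of the 7 windows, against 25.7% of all windows. Srebf2 and Fasn, also in all 4 SOX lists, had no SOX core, and a match is not a binding site.

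Sqle (chr15:59315092-59331193) had 1 SOX peak in the series, P2 SOX9 of 3764 bp (chr15:59312884-59316647) over its lower end, with no SOX8 at either age. Of this peak, 86.6% lay in H3K4me3 and 54.4% in H3K27ac. H3K4me3 at that end measured 5377 bp at P2 and 6484 bp at P17, so the mark was present at P17 where the SOX9 peak was not. H3K27ac at the same end measured 2046 bp at P2 and 3774 bp at P17, the latter being the only P17 H3K27ac peak of the gene.

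**Figure D4:**
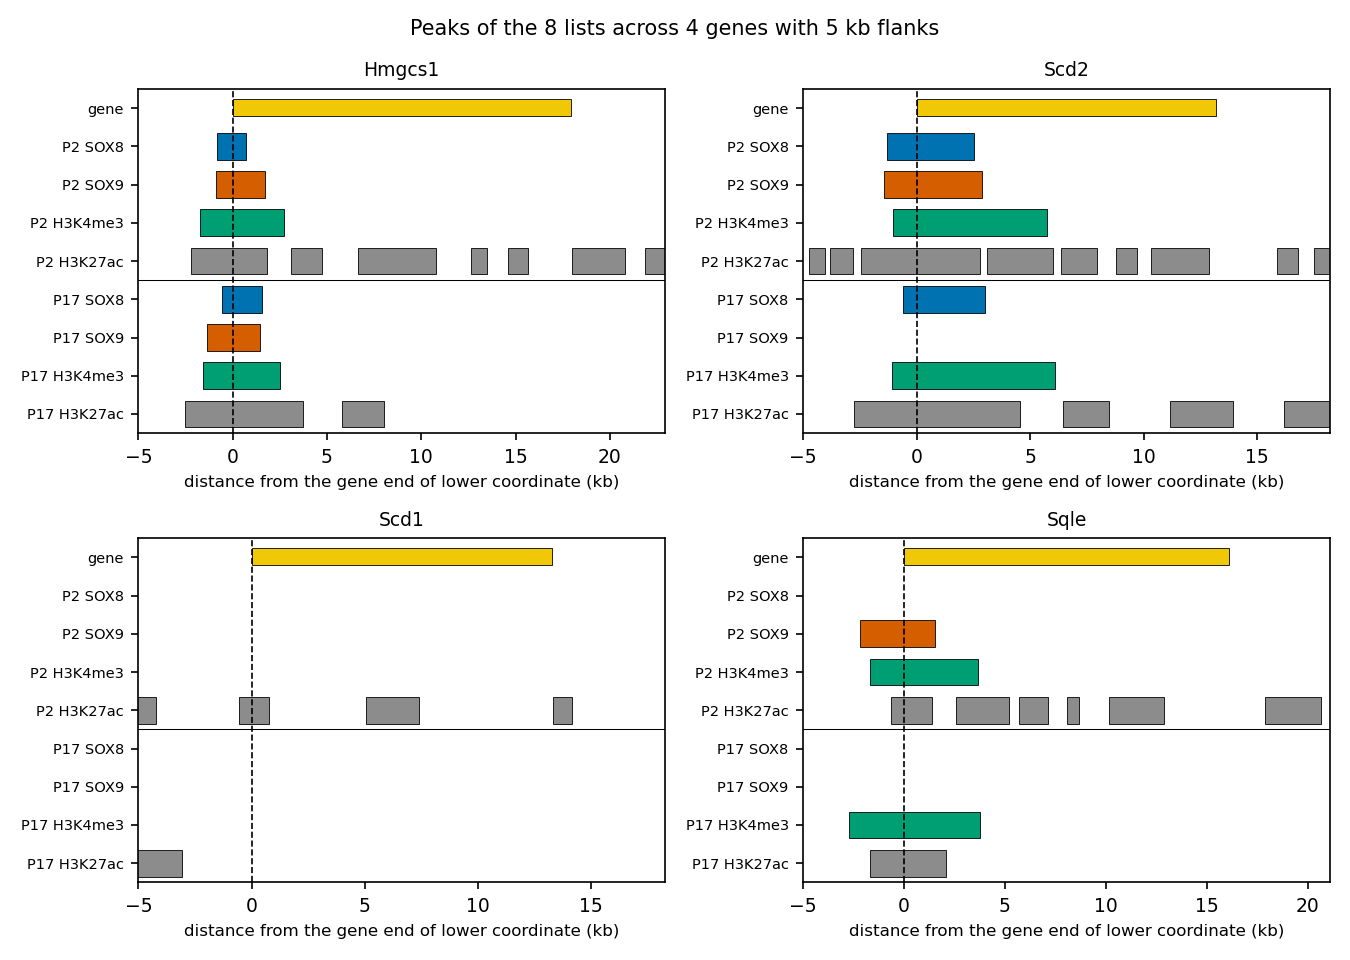
Peaks of the 8 lists (rows) across Hmgcs1, Scd2, Scd1 and Sqle with 5 kb flanks, in kb from the gene end of lower coordinate (dashed; for Hmgcs1 it is the listed start). Hmgcs1 shows 4 SOX peaks over its start, Scd2 shows 3, Sqle shows 1 and Scd1 none.

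Across the set, SOX peaks lay mostly at start sites, and most overlapped H3K4me3. Of the 5 members with a listed start, P2 SOX9 covered a start at 4, against 22.8% of all genes with one, and P2 SOX8 at 3, against 12.2%. At P17 SOX9 and SOX8 each covered a start at 3, against 10.3% and 8.4%. H3K4me3 covered a start at 4 of the 5 at both ages (44.8% and 46.0% of all genes), and H3K27ac at 4 at P2 and 5 at P17 (60.7% and 46.6%). The member without H3K4me3 over a start was Acaca, whose only listed start lies inside the gene. The 5′ end of Acaca was under H3K4me3 at both ages. All 5 P2 SOX8 peaks at members overlapped H3K4me3, between 93.3% and 100% of each peak, and so did 90.1% of all P2 SOX8 peaks. All 5 also overlapped P2 SOX9, as did 94.5% of that list. Of the members' 8 P2 SOX9 peaks, 7 overlapped H3K4me3 (79.8% of the list) and 5 overlapped SOX8 (45.5% of the list). At P17, 5 of the members' 6 SOX8 peaks (69.7% of the list) and 4 of their 4 SOX9 peaks (66.5% of the list) overlapped H3K4me3. The part of these SOX9 peaks inside the mark ran from 25.6% to 100%, with a median of 33.0%, against 71.7% for the list. At Srebf2 the P17 SOX9 peak and the wider P17 SOX8 peak overlapped H3K4me3 at Shisa8, which had 0 bp in Srebf2. The members' 8 P2 SOX9 peaks measured 1936 to 5072 bp, and 5 of them were wider than their list's median. The 4 P17 SOX9 peaks measured 2824 to 22210 bp, and 3 were wider than theirs.

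Between ages, SOX9 peaks were at 7 members at P2 and at 4 at P17. Acaca, Scd2 and Sqle had SOX9 at P2 and not at P17, as did 16.4% of all genes, and no member had it at P17 only (4.35% of all genes). SOX9 at both ages was found at 4 members (11.4% of all genes). Srebf2 is counted among these, although its SOX9 peaks of the 2 ages did not overlap. Read over the genes with a P2 SOX9 peak, 3 of 7 members and 58.9% of all genes had none at P17. Srebf2 counts there as having a P17 peak, of which 615 bp lay in Srebf2 and none at its start. For SOX8, Acaca alone had a peak at P2 and not at P17 (7.0% of all genes), no member had one at P17 only (4.94%), and 4 had it at both ages (8.08%). Over the genes with a P2 SOX8 peak, 1 of 5 members and 46.4% of all genes had none at P17. H3K4me3 was at the same 7 genes at both ages (both ages in 45.9% of all genes, P2 only in 3.4%, P17 only in 5.0%). H3K27ac was found at both ages at all 8 (56.7% of all genes, P2 only in 25.1%, P17 only in 0.315%). The share of gene and flanks under H3K27ac was higher at P2 than at P17 at 7 of the 8, as at 65.3% of all genes with H3K27ac at both ages, and the P2 list covered more of the genome. Among these 7 genes it differed by the most at Fasn (75.5% and 25.4%) and by the least at Scd2 (71.3% and 60.9%). Acaca had 25.3% and 27.1%. With equal numbers of the widest peaks, H3K27ac was at 6 members at P2 and 8 at P17 (40.5% and 57.0% of all genes). The SOX9 list held fewer peaks at P17. With as many of the widest P2 SOX9 peaks as the P17 list has, SOX9 was at 5 members at P2 and 4 at P17, while over all genes the order of the ages reversed, with 14.5% at P2 and 15.7% at P17. Hmgcs1 and Acaca, whose P2 SOX9 peaks are narrow, were then left out at P2.

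The other genes of the pathway were read from a list of 50, none of them a member. P2 SOX9 peaks lay at 26 of the 50 (52%, against 27.7% of all genes) and P2 SOX8 peaks at 11 (22%, against 15.1%). At P17 the shares lay nearer to those of all genes, with SOX9 at 10 (20%, against 15.7%) and SOX8 at 9 (18%, against 13.0%). H3K4me3 lay at 38 at P2 (49.3% of all genes) and 40 at P17 (50.9%). Of 18 genes of sterol synthesis, 12 had P2 SOX9 (66.7%, against 27.7% of all genes), among them Fdft1, squalene synthase, with a peak of 1239 bp. At P17, SOX9 was at 3 of the 18 (16.7%, against 15.7% of all genes): Fdps, Cyp51 and Mvk, the last of which had none at P2. H3K4me3 lay at 15 and 17 of these 18 genes. Among those with H3K4me3 of the same age, SOX9 was at 11 of 15 at P2 (73.3%, against 53.3% of all genes with the mark) and at 3 of 17 at P17 (17.6%, against 27.4%). The 12 P2 SOX9 peaks of this group were narrow, from 1169 to 2822 bp, and 10 were below the list's median width. With equal numbers of the widest peaks at both ages the group had 2 genes with SOX9 at P2 and 3 at P17, the reverse order of the ages, and the shares of all genes also reversed, with 14.5% at P2 and 15.7% at P17.

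Of 17 genes of fatty acid synthesis, 8 had P2 SOX9 and 2 P17 SOX9 (Acss2 and Acly), or 47.1% and 11.8%. Of 15 regulators and uptake genes, 6 had P2 SOX9 and 5 P17 SOX9, or 40% and 33.3%. The shares of all genes were 27.7% at P2 and 15.7% at P17. Among genes with H3K4me3 of the same age, P2 SOX9 was at 58.3% and 54.5% of these groups, against 53.3% of all such genes. P17 SOX9 was then at 15.4% and 30.0%, against 27.4%. Scap, which escorts SREBPs, had no SOX peak. With equal numbers of the widest peaks, fatty acid synthesis had 3 genes with SOX9 at P2 and 2 at P17, and the regulators had 5 and 5.

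**Figure D5:**
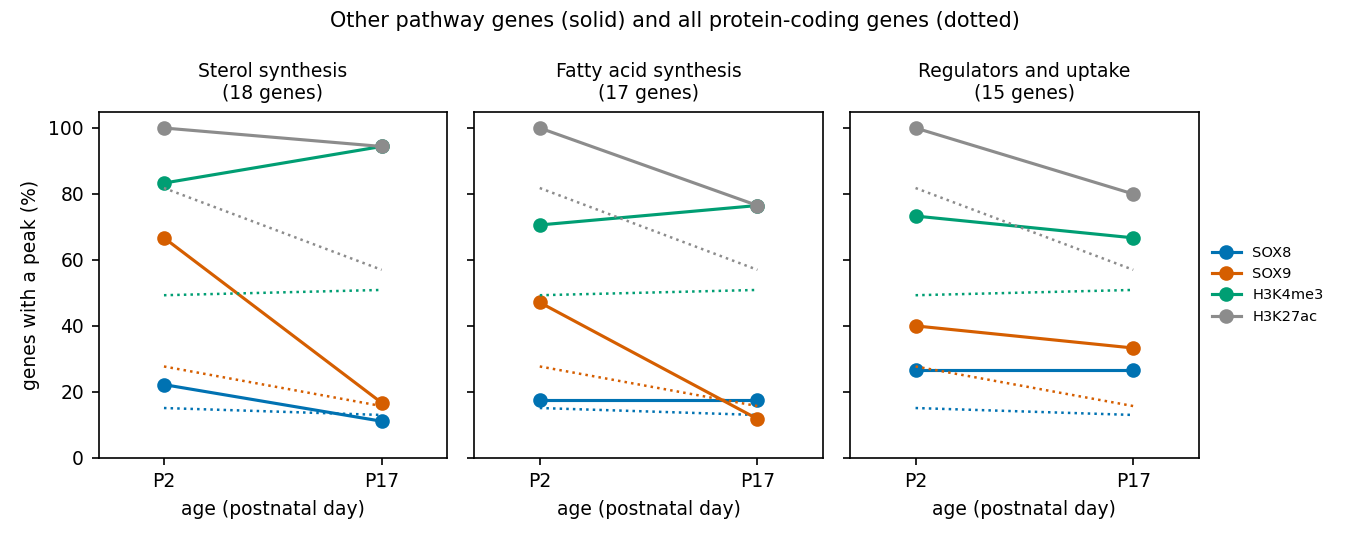
Share of genes with a peak, in percent, at P2 and P17 for 3 groups of other pathway genes (solid lines) and for all protein-coding genes (dotted lines), coloured by target. The solid SOX9 line of sterol synthesis goes from 66.7% to 16.7%, while its H3K4me3 line goes from 83.3% to 94.4%.

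Peaks in all 4 SOX lists, as at Srebf2, Fasn and Hmgcs1, were found at 4 of the 50 other genes, or 8%, near the 6.45% of all genes. Cyp51, a demethylase of the sterol pathway, had peaks of 1789 and 1969 bp for SOX8 and SOX9 at P2 and of 2168 and 3022 bp at P17. Acss2, which makes acetyl-CoA from acetate, had 1635 and 1932 bp at P2 and 1704 and 6441 bp at P17, the last also overlapping Ggt7. The other two were Nr1h2 and Nr1h3, the liver X receptors, which sense oxysterols and activate Srebf1. At Nr1h2 the P2 peaks measured 1917 and 3888 bp and the P17 peaks 1562 and 3787 bp. Its SOX8 peaks at P2 (chr7:44552363-44554279) and P17 (chr7:44549535-44551096) did not overlap. At Nr1h3 the peaks measured 2208 and 3062 bp at P2 and 3474 and 6103 bp at P17, and all 4 also overlapped the neighbouring gene Madd. Of the P2 SOX8 peak 50 bp lay inside Nr1h3, and of the P17 SOX8 peak 0 bp, so that without flanks Nr1h3 has no P17 SOX8 peak. Among the genes with a SOX peak at P17 and none at P2, Apoe, the main lipid carrier of the brain and retina, had P17 SOX9 of 7775 bp that also overlapped Tomm40. Hacd3, an enzyme of very long fatty acid elongation, had P17 SOX8 of 3187 bp.

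The presence of a peak in the 8 lists also grouped members with other genes. Srebf2, Fasn and Hmgcs1 had a peak in 8 of 8 lists, as did 1383 genes (6.32% of all), including Acss2, Cyp51, Nr1h2 and Nr1h3. The pattern of Sqle, P2 SOX9 with both marks at both ages, was shared by 1690 genes (7.72%), among them Acat2, Fdft1, Hsd17b12, Lss, Msmo1 and Mvd of the pathway. That of Acaca was shared by 884 genes (4.04%), with Fads2, Idi1, Mbtps1 and Tecr. That of Srebf1 was shared by 311 genes (1.42%), with Acly and Lpin1, and that of Scd2 by 307 (1.4%), with Insig1, which holds SREBPs in the endoplasmic reticulum. The pattern of Scd1, H3K27ac alone at both ages, was shared by 1296 genes (5.92%), with Hsd17b7 and Thrsp. Each of these counts includes the member itself.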

How the data were processed

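CUT&RUN was run on whole wild-type retina, and 8 deposited peak lists were used, 1 for each target and age. The submitters' processing notes name Bowtie2, SEACR and GRCm38, with no settings. Whether libraries were pooled, the threshold and the use of IgG are not given in the sources used here, and the depth is unknown. In the deposited lists the score is 0 in every peak, so it was not used. Lists were given their group by age and target.

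Genes came from RefSeq (GRCm38.p6): 21887 protein-coding genes on the main chromosomes, 17492 of them with a listed start. The members, the 50 other pathway genes and the marker genes were all matched by symbol. Of H3K4me3 peaks on chromosomes with listed starts, 81.8% at P2 and 80.5% at P17 covered a listed start. A gene had a peak where at least 1 bp lay in the gene or its 5 kb flanks. Motifs were sought as exact letters on both strands.

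Named genes are the 8 members, pathway genes in all 4 SOX lists or with SOX at P17 only, pathway genes with a member's exact pattern, and genes under a member's peak. Scap, Fdps, Mvk and the neighbours of pathway genes were added after their values were seen, and some genes that the rule names are not reported here. Members and lists were chosen with earlier results of these data known. Overlap functions were tested on simulated data. Alternatives were 8 other windows or peak filters. Python 3.11.15, numpy 2.4.6 and pandas 2.3.3 were used.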

Additional observations from a re-analysis of the deposited data

How the results depend on the processing

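Of 160 counts of members recomputed under 8 alternatives, 149 stayed within 1.5 times the count reported. The counts are small, so this band is wide. P2 SOX9 at 5 members with equal numbers of widest peaks (14.5% of all genes), against 7 reported (27.7%), was within it. With 1 kb on either side of the listed starts, or of both gene ends for Scd1, Scd2 and Sqle, SOX8 at P2 and not at P17 was found at 0 members (6.1% of all genes). H3K27ac was then at P2 only in 1, Scd1, by a gene end (21.5%). It was at P17 only in 1, Acaca, by its listed start inside the gene (1.54%). H3K27ac at P2 only was found at 1 member with no flank (24.5%) and at 1 with 50% of the peak inside the window (27.1%). With a flank of 50 kb, SOX8 at P17 only was found at 1 (6.27%). With the wider 50% of each list, P2 SOX8 lay at 3 members (7.59% of all genes) and SOX8 at P2 only was at 0 (4.88%). With equal numbers of widest peaks at both ages, SOX8 at P17 only was found at 1 member (5.36%), SOX9 at P17 only at 1 (8.16%) and H3K27ac at P17 only at 2 (23.8%). Beyond what these settings leave out by construction, the cause was not tested. Of 64 counts over the 50 other pathway genes, 10 moved by more than 1.5 times. No paired analysis was possible because no list names a replicate. For the same reason no replicate could be left out. Whether a weak site is missing from a list for want of depth cannot be read from the lists.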
